A study of Homo sapiens with 4 samples.

Results

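The 9 genes described here are FOXO1, FOXO3, FOXO4, RAG1, RAG2, IL7R, KLF2, KLF6 and CCNG2, out of 25066 genes listed for NUDUL1 cells, a human lymphoma line of the germinal center subtype of diffuse large B cell lymphoma. They were taken by symbol as FOXO transcription factors and lymphoid genes placed under FOXO control, and they were selected on their log2 differences between the groups below, in which they had moved in opposite directions. Their differences are therefore a description and carry no test. RNA was sequenced from 4 libraries, 2 labelled control (a control sgRNA) and 2 labelled GNA13-deficient (a GNA13 sgRNA, aimed at the gene for the G protein subunit Gα13), with 1 sgRNA per group. All 4 came from a single-cell clone with doxycycline-inducible Cas9 that also carried the thromboxane receptor Tbxa2r on a retroviral vector. Cas9 was induced in both groups, and both were exposed to U46619, a stable analog of thromboxane A2, for 24 h at the 10 nM given in the labels. No untreated cells and no second clone were analysed here. The labels do not say that replicates were separate cultures, so every error below measures only the spread between libraries.

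FOXO proteins are forkhead transcription factors that enter the nucleus when PI3K and AKT signaling is low, and AKT phosphorylation sends them back to the cytoplasm. In B cell precursors FOXO1 is known to switch on RAG1, RAG2 and IL7R, in naive lymphocytes it is known to maintain KLF2, and in germinal centers it is known for the dark zone program. RAG1 and RAG2 form the enzyme that cuts immunoglobulin and T cell receptor genes for V(D)J recombination, a step that mature germinal center B cells have normally left behind.

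Depth was similar in the 4 libraries, from 29209544 to 31537955 mapped reads. GNA13 mRNA was 12.46 and 12.45 in the control libraries and 13.10 and 13.11 under the GNA13-deficient label on the deposited log2 scale, a difference of 0.65 (SE 0.05, limma adjusted p = 0.00214). The transcript of the targeted gene was thus higher, and not lower, in the libraries labelled GNA13-deficient, so groups are named by their labels throughout. B cell markers had reads in all 4 libraries for 7 of 7 genes, with 53970 to 63481 reads in sum. Germinal center markers had reads for 8 of 9 genes, with 23814 and 23865 reads in sum in the control libraries and 20336 and 21726 under the GNA13-deficient label, and SERPINA9 was listed at 0. Most of each sum was MME, at 16961 and 16664 reads against 16404 and 15157. Of the 8 tested, 3 were lower at a limma adjusted p under 0.05, and 5 did not pass. The 3 were BCL6 (1692 and 1935 reads against 293 and 323), LMO2 (271 and 269 against 17 and 23) and RGS13 (12 and 13 against 3 and 1). The 5 detected B precursor markers summed to 12347 and 13420 reads in the control libraries and to 27362 and 29398 under the GNA13-deficient label, while CD34 and ERG were listed at 0. Most of that rise was IGLL1, at 5503 and 6501 reads against 20224 and 22283. Of the 5, 3 were higher and 2 lower under the GNA13-deficient label. In bulk RNA of a cell line, fewer cells with a transcript and less of it per cell cannot be told apart. Of 16945 genes tested, 29.7% passed the limma threshold (adjusted p under 0.05), 16.6% lower and 13.1% higher in the libraries labelled GNA13-deficient. Groups of 2 libraries did not overlap for 65.3% of genes.

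All 9 genes were above 0 in every library. Of the 9, 8 passed the threshold, 7 lower and 1 higher, against 29.7% of all genes tested, and the same 8 had groups that did not overlap, against 65.3%. This count repeats the rule by which the genes were chosen, and nothing is read from it. The median difference over the 9 genes was -0.67 on the log2 scale, beside -0.02 over all genes tested. IL7R stood alone on the higher side, and FOXO1 was the member whose groups overlapped.

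**Figure D1:**
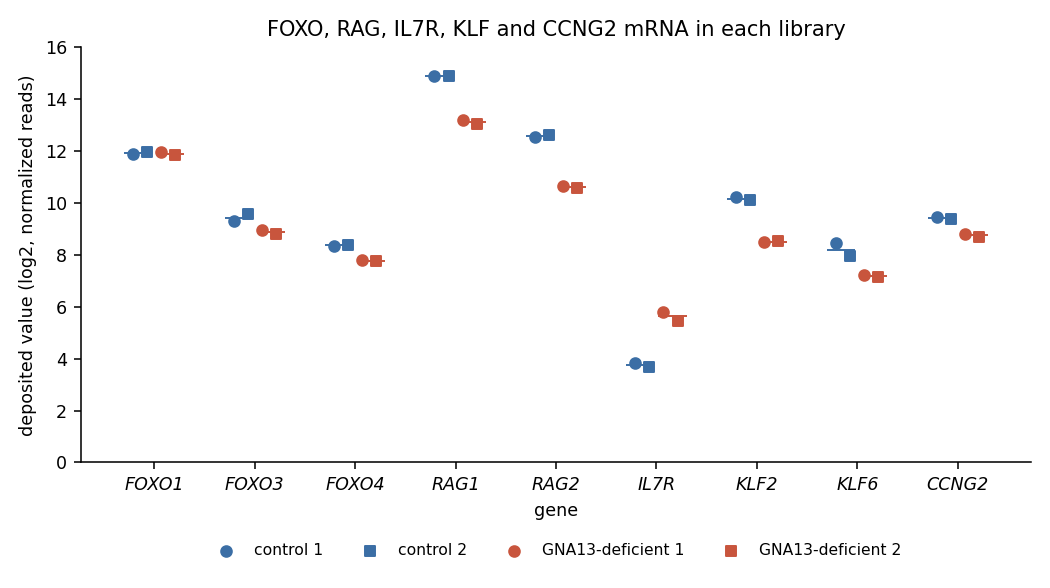
Deposited log2 value (vertical axis, normalized reads) of each of the 9 genes (horizontal axis) in the 4 libraries, with circles for replicate 1, squares for replicate 2, blue for libraries labelled control, red for libraries labelled GNA13-deficient and short lines for group means. The FOXO1 points lie together between 11.83 and 11.99, the red points of 7 genes lie under the blue ones, and those of IL7R lie above.

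Among the FOXO factors, FOXO1 was the most abundant and showed no separation of the groups, while FOXO3 and FOXO4 were lower in both libraries labelled GNA13-deficient. FOXO1 (chr13:41129804-41240778, minus strand, GRCh37), the factor best known in B cells, read 11.89 and 11.99 in the control libraries and 11.96 and 11.83 under the GNA13-deficient label. These values interleave, and the difference was -0.04 (SE 0.07). The sign of that difference depended on scaling, with 0.17 after centring each library on its median and -0.22 after centring on reference genes. FOXO1 rested on 3391 to 4120 reads per library, so counting error was small beside the spread between libraries.

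FOXO3 (chr6:108881038-109005977, plus strand), a broadly expressed family member tied to quiescence and stress resistance, read 9.31 and 9.57 in the control libraries and 8.94 and 8.79 under the GNA13-deficient label. Both control values lay above both others, and the difference was -0.57 (SE 0.12), a ratio of 0.673. FOXO3B, a near-identical copy of FOXO3 that can take its reads, went the other way, from 158 and 153 reads to 213 and 171, a difference of 0.37. When the linear values of FOXO3 and FOXO3B were added, the sum read 9.64 and 9.83 against 9.47 and 9.29, a difference of -0.35. The groups of the sum still did not overlap, but how reads were divided between the copies is not known, and the size of the FOXO3 difference is uncertain to that extent.

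FOXO4 (chrX:70315701-70323382, plus strand), the shortest of the FOXO transcripts, read 8.34 and 8.40 in the control libraries and 7.81 and 7.75 under the GNA13-deficient label. The replicates lay within 0.06 of each other in each group, and the groups were apart by -0.59 (SE 0.10), a ratio of 0.664. The FOXO3 and FOXO4 differences shrank to -0.36 and -0.38 after median centring of the libraries, and that of FOXO4 to -0.39 after quantile normalization.

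The RAG genes had the highest values of the 9 in the control libraries and the largest differences below 0. RAG1 (chr11:36531922-36614706, plus strand), which carries the DNA-cutting site of the recombinase, read 14.91 and 14.90 in the control libraries and 13.20 and 13.04 under the GNA13-deficient label. In reads this was 30172 and 31053 against 9151 and 7808, so the difference of -1.79 (SE 0.08, a ratio of 0.290) is not a matter of few reads. RAG2 (chr11:36597124-36619829, minus strand), the regulatory partner that binds marked histone H3, read 12.55 and 12.61 against 10.65 and 10.57, from 5877 and 6367 reads to 1563 and 1408. The replicates of RAG2 lay within 0.08 of each other, and the difference was -1.97 (SE 0.06), a ratio of 0.255. Neither gene was close to being shut off, since each kept over 1000 reads in every library.

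The ratio of RAG1 to RAG2, taken per kb of transcript, was 1.78 and 1.69 in the control libraries and 2.03 and 1.92 under the GNA13-deficient label. The ratio was thus higher in both libraries labelled GNA13-deficient, with RAG2 reduced slightly more than RAG1. Extended transcripts of RAG1 and RAG2 share 588 exon bases on opposite strands, and RAG2 shares 372 with IFTAP (C11orf74 in the files). The kit kept strand, but the strand setting of the counting is not given in the sources used here, so reads from the shared bases cannot be told apart. The B precursor markers did not follow the RAG genes as a group, with 3 of the 5 detected called higher and 2 lower. Over all genes, 13.1% were called higher and 16.6% lower. DNTT, the terminal transferase of V(D)J joining, read 8.49 and 8.34 against 7.27 and 7.13 (difference -1.22, adjusted p = 0.0039 by limma), while IGLL1 and VPREB1, the surrogate light chain genes, rose by 1.90 and 0.88 (adjusted p = 0.00125 and 0.00342). Their part in the RAG result was not tested.

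RAG1 and RAG2 lie end to end on chromosome 11, with their canonical transcripts converging and 12180 bases between the ends. Of 9 listed genes starting within 1 Mb of the point midway between them, 8 were tested, RAG1 and RAG2 among them. IFTAP, which overlaps RAG2 on the other strand, had 99 and 118 reads in the control libraries and 42 and 46 under the GNA13-deficient label, a difference of -1.23 (limma adjusted p = 0.0154). TRAF6, a ubiquitin ligase of innate receptor signaling and the next gene on the RAG1 side, fell by 0.51 on the log2 scale (adjusted p = 0.00748), less than either RAG gene. PRR5L (FLJ14213 in the files), an mTORC2 partner, had 16 and 31 reads against 4 and 5 (difference -2.25, adjusted p = 0.0241). Farther out, COMMD9 overlapped between groups with a difference of -0.08 (adjusted p = 0.591), TRIM44 fell by 0.34 (adjusted p = 0.0331) and FJX1 had 25 and 26 reads against 4 and 3 (difference -2.81, adjusted p = 0.00663). All 8 differences were below 0, as were those of 8802 of 16945 genes tested, and RAG1 and RAG2 were selected on theirs. The sizes of the 8 differences did not follow the distance from the locus, and LDLRAD3 was listed at 0. COMMD9, TRIM44 and FJX1 are named for their position after their values were seen. Without control replicate 2, IFTAP and PRR5L missed the threshold (adjusted p = 0.0873 and 0.086), and PRR5L also did so without either library labelled GNA13-deficient (adjusted p = 0.0611 and 0.0517).

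**Figure D2:**
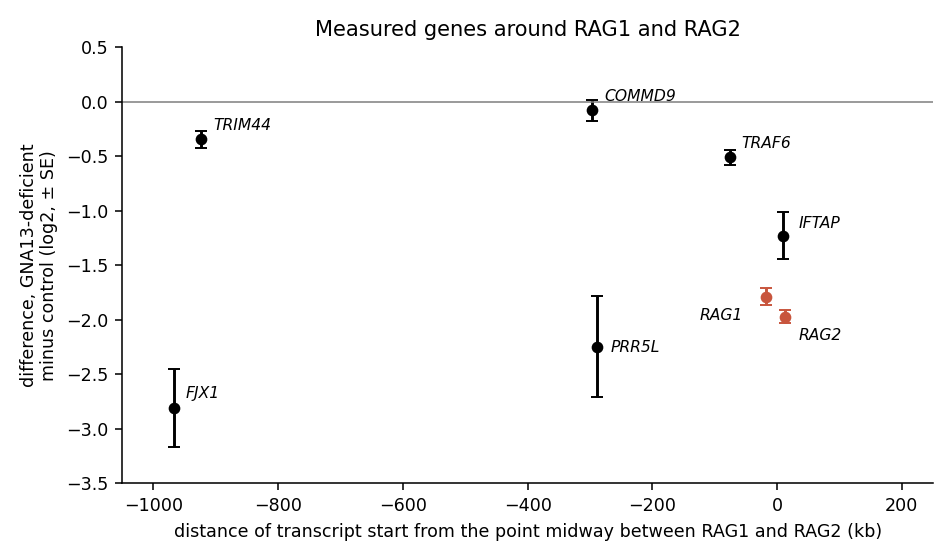
Difference between libraries labelled GNA13-deficient and control (vertical axis, log2, bars are 1 SE) for the 8 tested genes around the RAG locus, against the distance of each transcript start from the point midway between RAG1 and RAG2 in kb (horizontal axis), with RAG1 and RAG2 in red. All 8 points lie below 0, from -0.08 for COMMD9 to -2.81 for FJX1, as do 8802 of 16945 genes tested.

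IL7R was the member that went up, from a very low level. IL7R (chr5:35852797-35879705, plus strand) encodes the interleukin-7 receptor alpha chain, which keeps lymphoid precursors and naive T cells alive. It read 3.83 and 3.68 in the control libraries and 5.79 and 5.46 under the GNA13-deficient label, and the difference was 1.87 (SE 0.31). Behind these values stood 14 and 13 reads against 54 and 41. Summed by group, 27 reads (exact Poisson 95% interval 17.8 to 39.3) stood against 95 (76.9 to 116.1), a ratio of 3.66 on the log2 means. The intervals cover counting error only, and replicates differed by more than that. IL7R was selected on this difference, so the intervals are not a test of it. Because reads were few, the offset mattered more than for any other member, and adding 10 to the linear values lowered the difference to 1.34.

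T cells also express IL7R, and T cell markers were read beside it. CD3D, CD3E, CD2 and TRAT1 were listed at 0 in all 4 libraries, and 6 of 10 T cell markers had at most 1 read in any library. The 10 markers summed to 215 and 290 reads in the control libraries and to 62 and 68 under the GNA13-deficient label. CD4 had 115 and 175 reads against 12 and 5, and LCK had 85 and 103 against 29 and 33. CD1A went the other way, from 9 and 7 reads to 19 and 30, a difference of 1.66 (limma adjusted p = 0.0419). The part of these markers in the IL7R result was not tested. Myeloid markers went from 224 and 246 reads in sum to 29 and 25, with S100A8 and S100A9 listed at 0.

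The stretches just upstream of RAG2, IL7R and FOXO3 are shown because FOXO factors bind a short core, here searched as GTAAACA and ATAAACA on either strand. The words differ in their first letter and cannot match at the same place and strand. Each line holds the 250 bases before the canonical transcript start in GRCh37, on the gene's own strand, with capitals for a match (TGTTTAT is ATAAACA on the other strand).
RAG2, chr11:36619787-36620036, minus strand: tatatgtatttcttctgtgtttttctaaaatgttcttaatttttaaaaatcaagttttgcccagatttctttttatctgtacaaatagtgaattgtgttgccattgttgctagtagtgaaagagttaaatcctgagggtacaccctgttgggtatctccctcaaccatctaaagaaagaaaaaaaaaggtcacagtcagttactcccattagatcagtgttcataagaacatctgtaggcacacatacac
IL7R, chr5:35856743-35856992, plus strand: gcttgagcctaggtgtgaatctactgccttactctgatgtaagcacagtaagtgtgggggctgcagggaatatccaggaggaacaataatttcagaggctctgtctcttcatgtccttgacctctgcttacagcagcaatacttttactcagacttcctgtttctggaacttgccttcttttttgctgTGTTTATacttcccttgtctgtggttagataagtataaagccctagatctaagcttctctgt
FOXO3, chr6:108881870-108882119, plus strand: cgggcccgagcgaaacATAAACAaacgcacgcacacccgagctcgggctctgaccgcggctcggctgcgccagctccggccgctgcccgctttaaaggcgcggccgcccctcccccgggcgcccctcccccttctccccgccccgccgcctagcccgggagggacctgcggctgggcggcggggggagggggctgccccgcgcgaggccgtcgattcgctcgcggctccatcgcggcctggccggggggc

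The IL7R match ends 56 bases before the start, and the FOXO3 match ends 228 bases before it. RAG2 had no match in this window, and the nearest began 272 bases upstream of the start. Of 13745 promoters of tested protein-coding genes, 478 held a match within 250 bases (3.48%), and 21.2% held a match within 1000 bases. A match is a description of the letters and not a bound site, and no binding was measured.

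KLF2 and KLF6 are Krüppel-like zinc finger factors, and both were lower in the libraries labelled GNA13-deficient. KLF2 (chr19:16435637-16439496, plus strand), known for lymphocyte quiescence and homing, read 10.22 and 10.11 in the control libraries and 8.50 and 8.52 under the GNA13-deficient label. With 1169 and 1121 reads against 352 and 342, replicates were close and the difference was -1.65 (SE 0.08), a ratio of 0.318. KLF6 (chr10:3818188-3827473, minus strand), a growth-restraining factor, read 8.46 and 7.94 against 7.21 and 7.16. Its control replicates lay 0.52 apart, the widest replicate spread among the 9, yet the lower control value was still above both others. The KLF6 difference was -1.02 (SE 0.20), and it ran from -1.28 without control replicate 2 to -0.76 without control replicate 1. The per-kb ratio of KLF2 to KLF6 was 5.48 and 7.30 in the control libraries and 3.98 and 4.18 under the GNA13-deficient label, so KLF2 lost more than KLF6.

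CCNG2 (chr4:78078360-78354542, plus strand) encodes cyclin G2, an unconventional cyclin that is linked to cell cycle arrest and is used as a FOXO readout. It read 9.46 and 9.37 in the control libraries and 8.81 and 8.69 under the GNA13-deficient label, from 694 and 674 reads to 438 and 384. The groups were apart, with a difference of -0.67 (SE 0.09) and a ratio of 0.630. Of 4 related cyclin genes tested, 1 was called (CCNF, named after its values were seen, higher by 0.85), beside 29.7% of all genes called. CCNG1 overlapped between groups (difference -0.09, limma adjusted p = 0.472), and CCNI differed by -0.11 (adjusted p = 0.211).

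**Figure D3:**
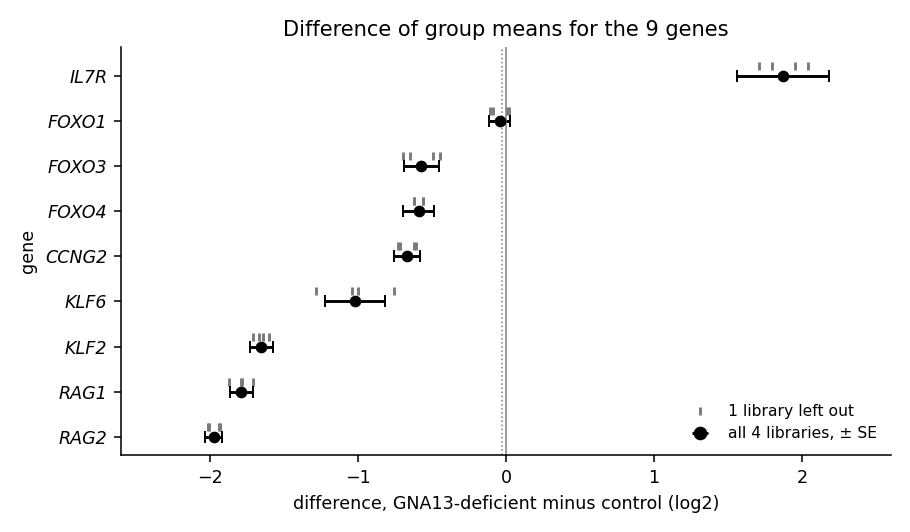
Difference of group means, libraries labelled GNA13-deficient minus control (horizontal axis, log2), for each of the 9 genes (vertical axis), with points and 1 SE bars from all 4 libraries and grey ticks for the value with 1 library left out. The dotted line is the median of all genes tested, -0.02. RAG2 and RAG1 lie farthest to the left, IL7R lies at 1.87, and FOXO1 straddles 0.

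Per kb of the longest annotated transcript, which lets genes be compared with each other, the 9 genes spanned over 3 orders of magnitude in the control libraries. RAG1 stood first in every library, at 4462 and 4440 normalized reads per kb in the control libraries and 1365 and 1221 under the GNA13-deficient label. Among 14902 genes with a length, that put RAG1 at rank 316 and 335 and then at 1371 and 1572. RAG2 followed at 2504 and 2623 against 671 and 634, and FOXO1 at 657 and 701 against 689 and 631. RAG2 was clearly above FOXO1 in the control libraries, but in the libraries labelled GNA13-deficient the order of RAG2 and FOXO1 changed from library to library. KLF2 came next at 422 and 391 against 128 and 130. CCNG2 was at 129 and 121 against 82.2 and 75.5, and KLF6 at 76.9 and 53.6 against 32.2 and 31.2. FOXO3 was at 87.0 and 104 against 67.4 and 60.7. FOXO4, at 89.0 and 92.6 against 61.7 and 59.0, could not be ordered against FOXO3, since they changed places between libraries. IL7R stood last in all 4 libraries, at 3.11 and 2.79 against 12.1 and 9.62, so its rise left it below every other member.

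Within the FOXO family the balance shifted toward FOXO1. FOXO1 exceeded FOXO3 per kb by 7.55 and 6.77 times in the control libraries and by 10.2 and 10.4 times in the libraries labelled GNA13-deficient. FOXO1 exceeded FOXO4 by 7.38 and 7.57 times and then by 11.2 and 10.7 times. Neither ratio overlapped between groups, and both rest on the differences of FOXO3 and FOXO4 given above rather than on a change of FOXO1. FOXO3 and FOXO4 were selected on those differences, so nothing further is read from the ratios. The ratio to FOXO3 leaves out FOXO3B, which differed by 0.37, while the sum of FOXO3 and FOXO3B differed by -0.35. The size of the shift against FOXO3 is uncertain to that extent.

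**Figure D4:**
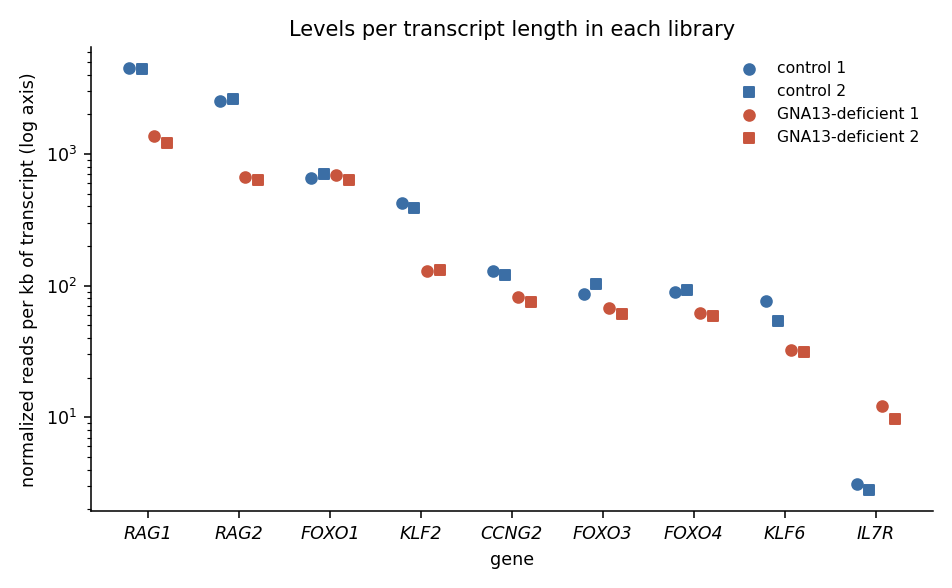
Normalized reads per kb of the longest transcript (vertical log axis) for the 9 genes ordered by their mean (horizontal axis) in the 4 libraries, with circles for replicate 1 and squares for replicate 2. RAG1 leads in every library and IL7R is last, while the red RAG2 points, 671 and 634, sit level with FOXO1.

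Genes known to steer FOXO proteins were read next, since FOXO activity is set mainly after translation. Of 22 tested, 5 were called higher and 2 lower, a share near the 29.7% of all genes called. The median difference was 0.14 beside -0.02 for all genes tested, and centring on reference genes moved the list median to -0.04. Among the kinase genes, AKT1 differed by 0.15 (limma adjusted p = 0.125), AKT2 by 0.19 (adjusted p = 0.0479) and SGK1 by -0.78 (adjusted p = 0.0889). The AKT2 call was lost without any 1 of the 4 libraries (adjusted p from 0.124 to 0.202). CDK2 and SKP2, a kinase and a ubiquitin ligase subunit that act on FOXO1 in other cells, rose by 0.74 and 0.72 (adjusted p = 0.00252 and 0.00332). The 14-3-3 genes that hold FOXO in the cytoplasm were split, with YWHAQ up by 0.46 (adjusted p = 0.0136) and YWHAG changed by -0.34 (adjusted p = 0.0222), and SGK3 changed by -0.49 (adjusted p = 0.0277). SGK3 was lost without control replicate 1 (adjusted p = 0.113), and it also missed the threshold without either library labelled GNA13-deficient (0.0657 and 0.094). YWHAG was lost without control replicate 2 or either library labelled GNA13-deficient (0.0914 to 0.115), and YWHAQ without control replicate 1 (0.0501) or GNA13-deficient replicate 2 (0.0648). Median centring turned all calls in this list to the higher side, 14 of them.

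Among other genes known as FOXO targets, most calls were on the lower side. Of 36 listed, 33 were tested, and 21 were called lower and 1 higher, beside 16.6% lower and 13.1% higher over all genes. The list median was -0.52 beside -0.02 over all genes. Between 17 and 24 were called lower under the 3 other scalings, and the median stayed below 0 (-0.71 to -0.32). The targets with the largest falls at higher expression were DEPP1 (C10orf10 in the files), an autophagy regulator induced by FOXO, at -2.92 (limma adjusted p = 0.00071), BCL6, the germinal center repressor, at -2.49 (adjusted p = 0.00085), and SESN1, a stress sensor that restrains mTORC1, at -1.61 (adjusted p = 0.00158). BCL6 read 10.75 and 10.89 in the control libraries and 8.23 and 8.44 under the GNA13-deficient label. BCL2L11, which encodes the death-promoting BIM, fell by 1.57 (adjusted p = 0.00125), as did SESN3 (adjusted p = 0.00258), and PIK3IP1, an inhibitor of PI3K, fell by 1.56 (adjusted p = 0.00454). The homing gene S1PR1, which also lies downstream of KLF2, differed by -0.69 (adjusted p = 0.00347). TXNIP, a brake on glucose uptake, differed by -0.47 (adjusted p = 0.0132), and without GNA13-deficient replicate 2 it missed the threshold (0.0575).

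CDKN1B, the gene for the cell cycle inhibitor p27 and a textbook FOXO target, was the member of that list called higher. It read 10.44 and 10.25 in the control libraries and 10.61 and 10.70 under the GNA13-deficient label, a difference of 0.31 (limma adjusted p = 0.0496). The call was lost without control replicate 2 (adjusted p = 0.156) or without either library labelled GNA13-deficient (0.0798 and 0.168). In the 250 bases upstream, GTAAACA was present in 5 of the 33 tested targets (15.2%) and in 1.81% of all promoters, while ATAAACA was present in 0 of the 33 and in 1.72% of all promoters. Within 1000 bases, 12 of the 33 held either word (36.4%), against 21.2% of all promoters. The targets with GTAAACA in the shorter window were DEPP1 (difference -2.92), BCL2L11 (-1.57), BTG1 (-0.86), TRIB2 (-0.52) and TXNIP (-0.47), of which BTG1 and TRIB2 are named after their values were seen. Targets with neither word in that window included IGF1R (-3.81), BNIP3 (-3.10), BCL6 (-2.49) and SESN1 (-1.61), and the 4 of 33 that were higher. Whether the words go with the differences was not tested.

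Genes that act with RAG or repair its breaks went both ways. Of 17 tested, 4 were called higher and 3 lower, beside 29.7% of all genes called, and the median was 0.05. Median centring gave 6 higher and 2 lower with a median of 0.26, and centring on reference genes gave 3 of each with a median of -0.13. HMGB1, a DNA-bending cofactor of RAG that has many processed copies and is uncertain for that reason, rose by 1.00 (limma adjusted p = 0.00239). The end-joining genes PAXX (C9orf142 in the files) and XRCC5, which encodes Ku80, rose by 0.86 and 0.60 (adjusted p = 0.00417 and 0.00473). ATM, the kinase that answers RAG breaks, differed by -1.50 (adjusted p = 0.00246). MRE11 (MRE11A in the files) differed by -0.34 (adjusted p = 0.0105), and without GNA13-deficient replicate 2 its adjusted p was 0.0539.

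Transcription factors known to act on the RAG locus or in RAG-expressing cells were mostly called lower. Of 25 listed, 23 were tested, with 12 called lower and 2 higher, beside 16.6% lower and 13.1% higher over all genes. The list median was -0.32. Median centring left 6 lower and 4 higher with a median of -0.12. The core B lineage factors showed small differences: PAX5 0.08 (limma adjusted p = 0.503), TCF3 -0.12 (adjusted p = 0.211) and EBF1 -0.27 (adjusted p = 0.06). FOXP1, a forkhead factor that binds RAG enhancers, differed by -0.37 (adjusted p = 0.03), and it missed the threshold without control replicate 1 (0.0793) or GNA13-deficient replicate 2 (0.101). SATB1, a chromatin organizer, fell by 2.53 (adjusted p = 0.00271), ID2, an inhibitor of E proteins, by 1.93 (adjusted p = 0.00068) and NFATC1 by 1.16 (adjusted p = 0.0024). IKZF1, the gene for Ikaros, rose by 0.58 (adjusted p = 0.00385). GFI1, a repressor, rose by 0.46 (adjusted p = 0.0344), a call that was lost without control replicate 2 (0.116) or either library labelled GNA13-deficient (0.0694 and 0.123).

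The rest of the IL-7 receptor pathway went both ways. Of 22 listed genes, 19 were tested, with 3 called higher and 3 lower beside 29.7% of all genes called, and a median of 0.03. This split depended on scaling, with 9 higher and 3 lower (median 0.24) after median centring and 2 higher and 6 lower (median -0.15) after centring on reference genes. IL2RG, the common gamma chain that pairs with IL7R, differed by -0.23 (limma adjusted p = 0.168), JAK1 by -0.20 (adjusted p = 0.0512) and JAK3 by 0.18 (adjusted p = 0.0678). STAT5A, which carries the receptor's signal to the nucleus, read 10.77 and 10.87 in the control libraries and 9.16 and 9.24 under the GNA13-deficient label, a difference of -1.62 (adjusted p = 0.00095). STAT5B, its close relative, overlapped between groups at 0.03 (adjusted p = 0.71). BCL2, a survival gene downstream of the pathway, fell by 2.53 (adjusted p = 0.000594) and STAT3 by 0.42 (adjusted p = 0.00734), while the feedback gene SOCS2 rose by 0.70 (adjusted p = 0.0042). MCL1 rose by 0.26 (adjusted p = 0.0307), and this call was lost without any 1 of the 4 libraries (0.0817 to 0.136). The ligand gene IL7, named after its values were seen, was 1 of the 3 called higher. It had 2 and 0 reads against 7 and 8, too few for a fold.

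The other Krüppel-like genes went both ways. Of 15 listed, 10 were tested, with 3 called higher and 3 lower, beside 29.7% of all genes called, and a median of 0.37. The 10 include KLF1 (1 and 4 reads against 3 and 2) and KLF15 (1 and 0 against 2 and 1). With the filter of 10 reads, 8 were tested, with 4 called higher, 3 lower and a median of 0.188. Centring on reference genes left 1 called higher and 3 lower, with a median of 0.19. KLF10 rose by 0.73 (limma adjusted p = 0.00229), and KLF13, which also acts in lymphocytes, fell by 0.68 (adjusted p = 0.00425).

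**Figure D5:**
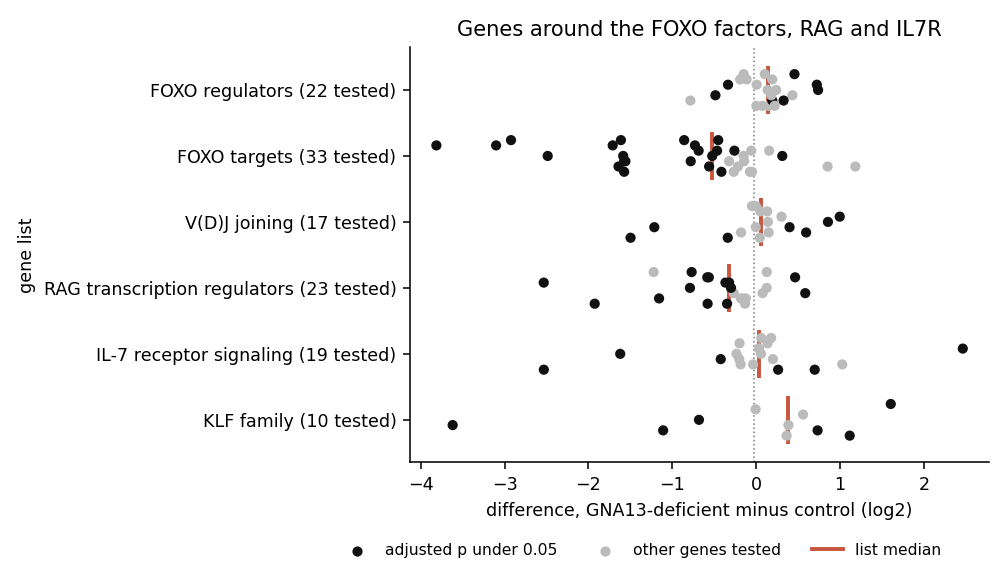
Difference between libraries labelled GNA13-deficient and control (horizontal axis, log2) for every tested gene of 6 lists (vertical axis), with black points for an adjusted p under 0.05, grey points for other genes, red lines for list medians and a dotted line for the median of all genes, -0.02. The red line sits at -0.52 for FOXO targets and at -0.32 for RAG transcription regulators, and between 0.03 and 0.37 for the other lists.

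Genes with the most similar pattern were sought by the distance between log2 values, each centred on its own mean over the 4 libraries, among 8473 genes of at least median expression. RAG2 lay nearest to ARHGEF12 (distance 0.0872), ID2 (0.0884) and NAV1 (0.104), which differed by -2.01, -1.93 and -1.98. RAG1 lay nearest to SH3TC1 (0.121), TRIP6 (0.148) and BMF (0.163), the last of which encodes a death-promoting BCL2 relative. RAG1 and RAG2 thus had different nearest genes, and neither was among the 3 nearest to the other. IL7R lay nearest to DMXL2 (0.225), CLEC17A (0.265) and GDA (0.276), all higher in the libraries labelled GNA13-deficient by 1.68 to 2.02. FOXO1 lay nearest to TNKS1BP1, NIPA1 and PAG1 at distances of 0.0153 to 0.0178. With 4 libraries in 2 groups, such a distance is mostly the size of the group difference.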

How the data were processed

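RNA sequencing of U46619-treated NUDUL1 cells was used (2 control libraries, 2 labelled GNA13-deficient). STAR on hg19 was the authors' aligner, and the submitters' processing notes name HTSeq. The authors deposited normalized reads per gene on the log2 scale, and the normalization and annotation are not given in the sources used here. A row of totals deposited on a linear scale served for the depth only. Low values step in whole reads, which were recovered. Of values up to 400 reads, 99.99% to 100% lay within 0.01 of a read plus the rounding of the log2 value. The recovered values gave the reads printed in the report, and in control replicate 2 a 0 can stand for 1 read. Reads printed for more abundant genes were not checked and are approximate, since the deposited log2 values are rounded. Precision follows from 29209544 to 31537955 mapped reads per library.

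The deposited log2 values entered a limma 3.58.1 fit (R 4.3.3, lmFit followed by trended eBayes) on the group alone, which left 2 residual degrees of freedom. Genes above 0 in at least 2 libraries were tested (16945 of 25066), and Benjamini-Hochberg adjustment over all of them used a threshold of 0.05. Reads of replicates differed by more than sampling noise (chi-square per degree of freedom 11.7 and 11.4), so all libraries were kept as separate samples. Levels per kb used the longest transcript in GENCODE v44lift37, found for 87.9% of genes tested. Sequences and coordinates were read from GRCh37 with Python 3.11.15.

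The 9 genes and all gene lists were chosen with earlier results of these data known. The text names the 9 genes, GNA13, the 3 largest called rises and falls of each of 6 lists at or above the median expression (8.13), a set of 29 pathway genes fixed by name, and the 3 nearest patterns of FOXO1, RAG1, RAG2 and IL7R. Any other gene is named after its values were seen, and some items that the rule includes are not reported here. Alternatives were no filter, a filter at median expression or at 10 reads, pseudocounts of 1 and 10, quantile normalization, median and reference gene centring, the replicate number as a block, no variance trend, a robust prior, voom weights on recovered reads, and leaving out each library. The pipeline was tested on simulated reads.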

Additional observations from a re-analysis of the deposited data

How the results depend on the processing

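Each of the 8 members other than FOXO1 kept its direction under all alternatives run. FOXO1 ranged from -0.22 to 0.17. With 2 libraries a group, and 1 residual degree of freedom once a library was left out (the lone library is then assumed to vary like the others), counts of calls moved more than directions, and the cause was not tested. Over all genes, 5037 were called, against 1999 with no filter, of which 1885 were shared, 2718 with no variance trend, and 2975 to 3675 with 1 library left out. Of the members, 8 were called, against 5 with no filter, beside 1999 of 25066 genes. With the filter at median expression, which 3 of the 9 did not pass, 5 were called, beside 4083 of 8473 genes. Leaving out the second replicate of either group also lowered the number of members called.

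With no filter, 2 FOXO regulators, 4 RAG regulators and 3 KLF genes were called, and with no variance trend 2 FOXO regulators, 14 FOXO targets, 6 RAG regulators and 3 IL-7 receptor genes. The filter at median expression called 11 FOXO regulators and 3 KLF genes, the filter of 10 reads called 12 FOXO regulators, and quantile normalization called 4. Median centring called 14 FOXO regulators and 12 IL-7 receptor genes. With 1 library left out, FOXO regulators ran from 3 to 4, RAG regulators from 9 to 12 and KLF genes from 3 to 5. The median over all genes went from -0.02 to 0.18 under median centring, and the share of calls on the higher side from 44.0% to 69.1%, while centring on reference genes (12 tested, 1 called, median 0.115) gave -0.21 and 21.0%. The share was 51.8% after quantile normalization and 54.6% with the filter at median expression.

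Some small differences that were not called changed sign. Under reference gene centring AKT1 became -0.0303, JAK3 -0.00333, STAT5B -0.148 and PAX5 -0.105, and PAX5 became -0.0444 under quantile normalization. Under median centring JAK1 became 0.0095, TCF3 0.084, CCNG1 0.122 and CCNI 0.102. With 1 library left out PAX5 ran from -0.013 to 0.17 and CCNG1 from -0.18 to 0.0075.

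Libraries share replicate numbers, but no source pairs them. Deviations of same-numbered libraries correlated at 0.45 over 8473 genes. With the replicate block, 6616 genes were called, with 14 FOXO regulators and 10 IL-7 receptor genes (4 higher, 6 lower), and the differences themselves were as without it. AKT1 (limma adjusted p = 0.0298), EBF1 (0.00961), IL2RG (0.0358), JAK1 (0.0127) and JAK3 (0.0445) then passed the threshold, which they missed without the block.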
